A study of Mus musculus with 4 samples.

Results

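Chromatin accessibility was examined at 10 genes of mitochondrial fatty acid beta-oxidation (Cpt1a, Cpt1b, Cpt2, Acadl, Acadm, Acadvl, Acads, Hadha, Hadhb and Decr1) in ATAC-seq libraries of mouse heart. ATAC-seq uses a transposase that cuts open chromatin and inserts sequencing adapters, so that the read count in a peak measures how open that region was. A peak belonged to a gene when it overlapped the gene body or lay within 20 kb of either end, and this rule used no measured value. It found 92 distinct peaks among the 87948 of the table, with 9 peaks shared by the neighbouring genes Hadha and Hadhb. The 4 libraries came from hearts at postnatal day 14, 2 wild type and 2 Carm1 mutant. Carm1 adds methyl groups to arginines of histones and of other nuclear proteins, and is known as a coactivator of transcription. Strain, sex and the nature of the mutant allele are not in the labels, nor whether replicates were separate animals. P-values therefore measure only the spread between these libraries, which may be technical.

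Beta-oxidation shortens fatty acids in the mitochondrial matrix and yields acetyl-CoA together with reduced electron carriers. Long-chain fatty acids first cross the mitochondrial membranes as carnitine esters, which are made by Cpt1 enzymes on the outer membrane and turned back into acyl-CoA by Cpt2 on the inner membrane. Acyl-CoA dehydrogenases of different chain-length preference then start each cycle, and the trifunctional protein, built from the products of Hadha and Hadhb, carries out the later steps for long chains. The heart moves from glucose and lactate towards fatty acids as its main fuel after birth, and this is why these genes are used as markers of cardiac maturation.

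The libraries held 15945420 to 19091969 counts within peaks, and the replicates were not copies of one library, since their counts varied beyond sampling noise. Levels are given as CPM, a peak's count relative to its library's total in peaks after trimmed-mean (TMM) scaling. The main peak at an end of Carm1 (chr9:21545484-21546896, mm10) had 90.1 and 89.5 CPM in the wild type and 91.4 and 95.5 CPM in the mutant (edgeR adjusted p = 0.839). A weak peak inside Carm1 (chr9:21574070-21574390) was lower in the mutant, with 3.17 and 3.35 CPM in the wild type and 1.28 and 1.20 CPM in the mutant (log2 fold change -1.39, SE 0.38, adjusted p = 0.0367 in edgeR). Neither level checks the genotype, since the labels do not describe the allele. For the tissue label, peaks at the ends of marker genes were read. The 8 cardiomyocyte markers examined all had such a peak, whereas Ptprc, Csf1r, Adgre1 and C1qa among 5 immune markers had none, nor had Sox10 (Schwann cells), Pax7 (skeletal muscle), Ucp1 (brown fat) or Alb (liver). The remaining members of these lists did have one. Cd68 of the immune list had 84.5 and 75.6 CPM in the wild type and 82.4 and 86.7 CPM in the mutant. Myod1 and Myog of the skeletal muscle list summed to 7.70 and 7.02 against 9.06 and 5.68 CPM. Summed over the cardiomyocyte markers the level was 934 and 893 CPM in the wild type and 1054 and 955 CPM in the mutant. The members differed: both mutant libraries lay above both wild-type libraries at Myh6, Myl2 and Ttn, below them at Actc1 and Ryr2, and the other 3 overlapped. Summed levels were also higher in both mutant libraries for the 5 mural markers (78.2 and 76.6 against 90.3 and 89.5 CPM, with 3 of 5 above and 0 below). The same held for 3 of 4 Schwann markers with a peak (32.9 and 37.6 against 39.8 and 44.1 CPM, 2 above and 0 below), for Cidea of the brown fat list (16.6 and 17.3 against 26.3 and 19.1 CPM) and for Apoa1 and Ttr of the liver list (17.6 and 19.9 against 23.97 and 20.95 CPM, each overlapping by itself). The 6 endothelial markers overlapped in sum (274 and 187 against 201 and 211 CPM), but Kdr, Tie1 and Emcn were lower in both mutant libraries than in both wild-type libraries. The 6 fibroblast markers (81.7 and 89.7 against 83.5 and 98.6 CPM) overlapped in sum, with Pdgfra alone above. In whole tissue, a changed share of cells and a changed accessibility per cell cannot be told apart.

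Reference sequence of the 250 bases upstream of an annotated start site is shown for 3 promoters (RefSeq, GRCm38.p6, the assembly of mm10). Hadhb was chosen because 3 of the 6 changed peaks lie in the joint window of Hadha and Hadhb. These 3 peaks lie 37240 to 47113 bp from the start site of Hadha or Hadhb, not at the promoter shown. Acadl was chosen for the peak with the largest fold change, and Acadm for the strongest start-site peak. Capitals mark each GGGCGG, the GC box bound by Sp1-type factors, or its reverse complement, on either strand.
Hadhb, chr5:30155003-30155252, + strand: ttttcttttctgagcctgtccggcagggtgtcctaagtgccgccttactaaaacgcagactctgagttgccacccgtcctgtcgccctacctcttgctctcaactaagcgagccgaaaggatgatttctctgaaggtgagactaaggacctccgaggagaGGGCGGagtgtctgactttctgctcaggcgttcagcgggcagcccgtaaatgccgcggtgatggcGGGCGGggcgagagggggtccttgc
Acadl, chr1:66863310-66863559, - strand: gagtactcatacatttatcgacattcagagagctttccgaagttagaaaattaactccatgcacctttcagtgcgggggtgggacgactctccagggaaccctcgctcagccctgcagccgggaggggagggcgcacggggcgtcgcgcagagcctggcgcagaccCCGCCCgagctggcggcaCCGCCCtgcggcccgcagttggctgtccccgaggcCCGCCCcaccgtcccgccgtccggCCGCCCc
Acadm, chr3:153944644-153944893, - strand: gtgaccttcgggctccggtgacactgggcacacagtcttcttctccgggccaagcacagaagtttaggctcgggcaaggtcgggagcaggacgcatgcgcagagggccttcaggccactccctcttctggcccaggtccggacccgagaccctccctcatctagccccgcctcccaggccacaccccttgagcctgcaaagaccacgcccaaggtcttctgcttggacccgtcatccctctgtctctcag

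Hadha and Hadhb are transcribed away from each other, with 272 bases between their annotated start sites, so the Hadhb window above is also most of the Hadha promoter. The promoter table held 8 of the 10 genes, all but Cpt1b and Decr1. The GC box was present in the upstream windows of 6 of these 8 (Acadl, Acads, Cpt1a, Cpt2, Hadha and Hadhb), against 32.7% of the 32851 promoter windows of the table. Hadha and Hadhb share most of their windows and are not separate cases. The windows with the box held 56.8% to 68.0% G and C, against a median of 52.4% over all windows. Without the box, Acadm held 64.0% and Acadvl 49.6%. The part of base content in the count of GC boxes was not tested. CCAAT was present in the window of Cpt1a and in 33.8% of all windows. None of the 8 windows held AGGTCA repeated after 1 free base (the direct repeat bound by PPAR and RXR, in 0.0335% of all windows) or TCAAGGTCA (a half-site of ERR-type receptors, in 0.387%). GCGC followed after 1 free base by TGCGC (the NRF1-type site, in 3.74% of all windows) and CACGTG (the E-box, in 6.02%) were not found in them either. Both strands were searched, and a PPAR-type repeat can hold the end of an ERR-type half-site. These exact letters are absent from these windows only.

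The peaks at the gene starts were among the stronger ones in the heart and none passed the test with all 4 libraries. Each was the strongest peak by mean CPM within 1 kb of an annotated start site, so its rank follows in part from that choice. For Cpt1b and Decr1, whose strand was not in the promoter table, the strongest peak at a gene end was taken. Ranks among gene-end peaks alone were not examined. The 9 peaks (that of Hadha and Hadhb is one) lay between the percentiles 82.6 and 99.5 of mean CPM among all peaks. Per kb of peak, the level was highest at Acadm, which encodes medium-chain acyl-CoA dehydrogenase, with 66.9 to 74.8 CPM per kb over the 4 libraries. No other start peak reached that range. Cpt2 followed with 32.3 to 42.0, Acadl with 28.3 to 35.2 and Hadha-Hadhb with 24.5 to 36.3 CPM per kb, and these neighbours in the order overlapped. Acadvl (19.7 to 25.6), Decr1 (19.2 to 24.6), Cpt1a (15.7 to 22.5), Acads (15.6 to 20.9) and Cpt1b (14.9 to 20.2) formed the lower end and also overlapped in CPM per kb. Cpt1a and Cpt1b, the isoforms typical of liver and of muscle, had start peaks whose ranges overlapped.

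Between the genotypes, log2 fold changes (mutant over wild type) of the 9 start peaks ran from 0.02 at Acadl to 0.30 at Hadha-Hadhb, with a median of 0.18. With all 4 libraries, 0 of 9 passed an adjusted p of 0.05 in edgeR's quasi-likelihood test over all peaks. In that test 0 had an unadjusted p under 0.05, and DESeq2 and limma voom called 0 as well. Of all peaks, 3.05% were called higher and 2.45% lower (5.5% in either direction), and of those within 1 kb of an end of a protein-coding gene 1.64% and 0.393%. At Hadha-Hadhb the start peak had 63.8 and 60.6 CPM in the wild type and 89.8 and 63.1 CPM in the mutant. Only mutant replicate 1 stood clear of the wild type there, and without mutant replicate 1 the log2 fold change was 0.02 (from 0.30). At Cpt1a it had 63.6 and 53.0 CPM in the wild type against 75.9 and 66.5 CPM in the mutant, which did not overlap (log2 fold change 0.29, SE 0.14, adjusted p = 0.236 in edgeR). Mutant replicate 1 was higher than mutant replicate 2 at 8 of the 9 start peaks, all but Acadm. With mutant replicate 1 left out, the start peaks had a median of 0 and 4 of 9 lay above 0. Without mutant replicate 2 the median was 0.34 and 9 of 9 lay above 0. In that fit the log2 fold change was 0.53 at Hadha-Hadhb and 0.38 at Cpt1a.

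**Figure D1:**
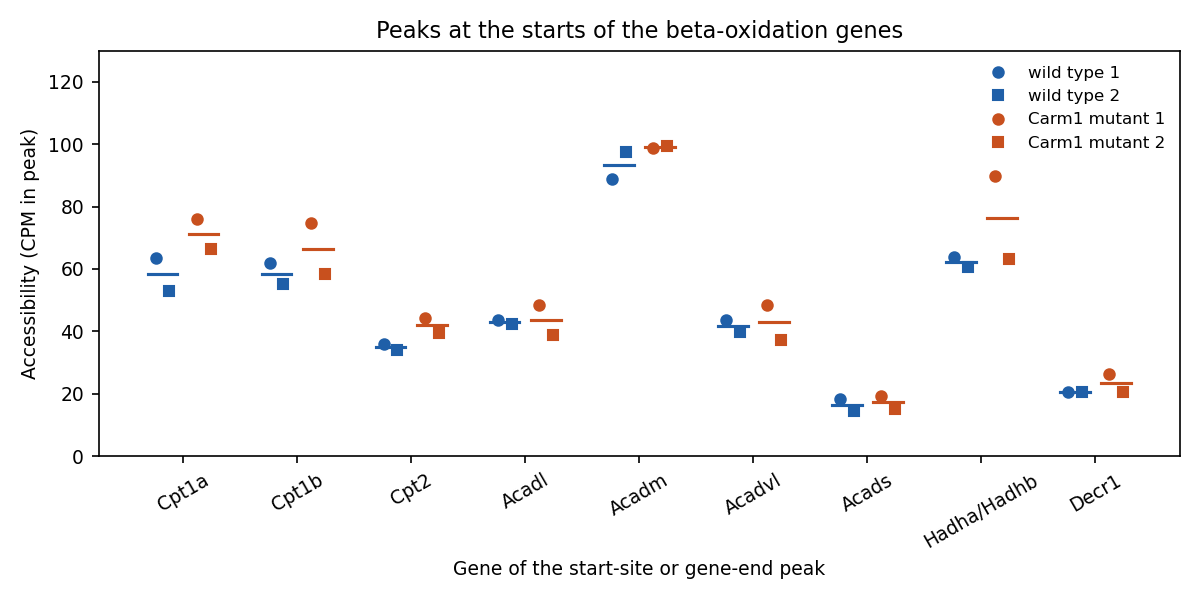
CPM at the start-site or gene-end peak of each gene in every library (points, circle for replicate 1 and square for replicate 2) with the mean of each genotype (bars, n = 2). Acadm is highest with 89.0 to 99.5 CPM, and at Hadha/Hadhb mutant replicate 1 (89.8 CPM) lies above the other 3 libraries.

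Of the 92 peaks, 4 were called higher and 2 lower in the mutant, and the other 86 were not called. This is 4.35% higher and 2.17% lower, against 3.05% and 2.45% of all peaks, so with all 4 libraries the calls were near the background. That comparison depended on the libraries: 17 peaks (18.5%) were higher without mutant replicate 2, against 4.9% of all peaks, and 0 without wild-type replicate 2, against 0.73%. The log2 fold change was above 0 at 70 of the 92 peaks (76.1%, against 49.9% of all peaks), and the median was 0.23, against 0 over all peaks. Both mutant libraries lay above both wild-type libraries at 42 peaks and below them at 5, where 25.8% and 25.7% of all peaks did so. An unadjusted p under 0.05 was reached by 23 peaks in the higher and 2 in the lower direction, against 11.4% and 10.4% of all peaks. The median of the member peaks, on the centred log2 CPM scale, was -0.06 and -0.17 in wild-type replicates 1 and 2 and 0.21 and 0.07 in mutant replicates 1 and 2. The summed levels at cardiomyocyte, mural, Schwann, brown fat and liver markers given above were also higher in both mutant libraries, and 3 endothelial markers were lower. Their part in this shift was not tested. Without the 19 peaks of Hadha and Hadhb, an exclusion chosen after the values were seen, 1 peak was higher and 2 lower, and the median was 0.15.

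The 6 called peaks lay away from the starts of the 10 genes. Of the 9 start peaks and of the 14 peaks that lay within 1 kb of the end of another gene only, none was called (1 of the 14 had an unadjusted p under 0.05 in edgeR, DESeq2 and limma voom alike), and all 6 calls fell among the other 69. One of these 6, at the boundary of Garem2 and Hadha, lies within 1 kb of gene ends itself, and the other 5 lie farther away. Among all peaks, 2.03% of those within 1 kb of an end of a protein-coding gene were called in either direction, against 6.28% of those farther away (3.36% higher and 2.91% lower). The plot of fold changes by gene shows the calls spread over Acadl, the Hadha-Hadhb pair, Cpt1a and Decr1.

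**Figure D2:**
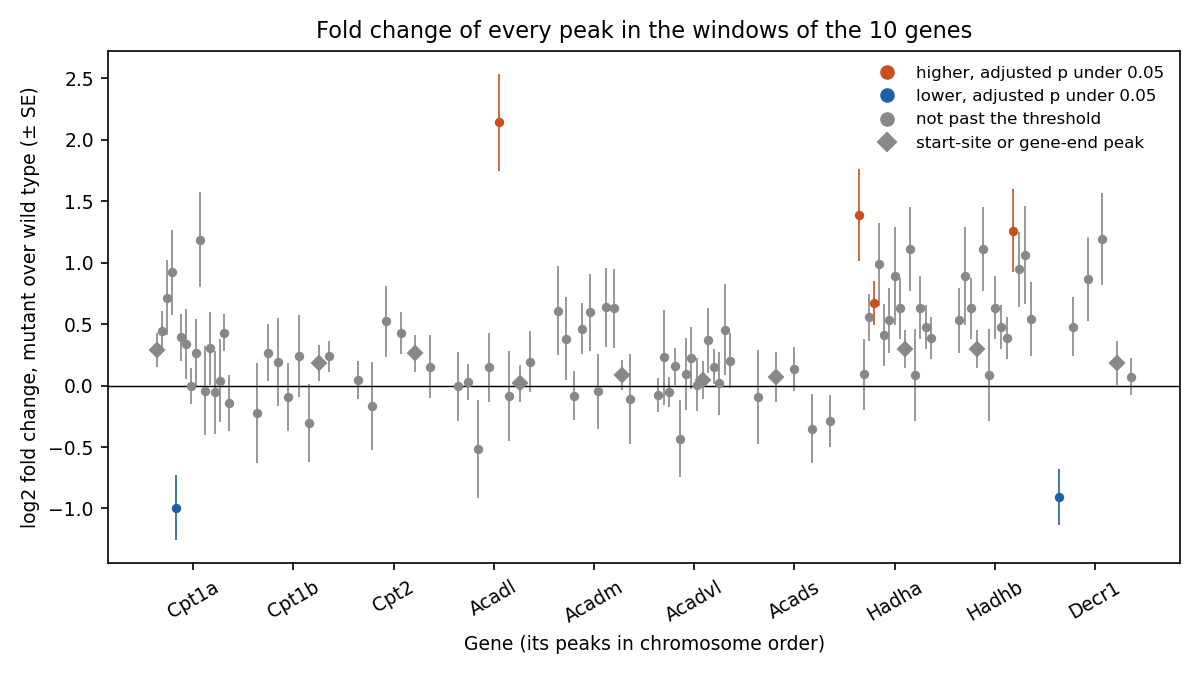
log2 fold change with its SE (mutant over wild type) of every peak in the windows of the 10 genes, in chromosome order within a gene, with 9 peaks drawn under both Hadha and Hadhb. All points of Hadha and Hadhb lie above 0, between 0.09 and 1.39, and the 2 called lower peaks lie in Cpt1a and Decr1.

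Among the genes of the carnitine shuttle, Cpt1a held 16 peaks, of which 1 fell and 0 rose (edgeR; 5 had an unadjusted p under 0.05 in the higher direction, and DESeq2 and limma voom also called 0 higher). Higher calls appeared with loess offsets (1) and when either mutant replicate was left out. The lower peak lies inside the gene (chr19:3333012-3333537, mm10), 9973 bp past the start site. It had 8.26 and 10.01 CPM in the wild type and 4.08 and 5.11 CPM in the mutant, and the groups did not overlap. The log2 fold change was -0.99 (SE 0.26, adjusted p = 0.0308 in edgeR). This call was lost with DESeq2 (adjusted p = 0.0632) and, in edgeR, when wild-type replicate 1 (0.0687), 2 (0.258) or mutant replicate 1 (0.0737) was left out. Around it the other peaks of Cpt1a did not pass, with log2 fold changes up to 1.19. Of the 16 peaks, 8 had both mutant libraries above the wild type and 1 below (25.8% and 25.7% of all peaks). The gene-end peak of the neighbour Tesmin, inside the Cpt1a window, had 30.2 and 31.6 CPM in the wild type and 40.2 and 43.0 CPM in the mutant (adjusted p = 0.0938 in edgeR).

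No peak of Cpt1b or Cpt2 passed the threshold in edgeR, DESeq2 or limma voom. The 8 peaks of Cpt1b had log2 fold changes from -0.31 to 0.27, and none had an unadjusted p under 0.05. Its strongest peak at a gene end (chr15:89423425-89427119) also reaches the end of Chkb, a choline kinase gene next to it. Its levels were 61.8 and 55.2 CPM in the wild type and 74.8 and 58.4 CPM in the mutant, which overlapped. The smallest p of Cpt1b was that of the next peak, at the end of Chkb (chr15:89427318-89430486), with 73.1 and 67.8 CPM in the wild type and 81.2 and 84.8 CPM in the mutant (log2 fold change 0.24, SE 0.13, adjusted p = 0.298 in edgeR). In Cpt2, 3 neighbouring peaks at the start and just inside the gene had both mutant libraries above the wild type (25.8% of all peaks). The middle one (chr4:107921859-107922885) had 22.5 and 19.3 CPM in the wild type and 30.3 and 25.9 CPM in the mutant, with log2 fold change 0.43 (SE 0.17, adjusted p = 0.15 in edgeR). It passed only when mutant replicate 2 was left out (0.0372).

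Of the 4 acyl-CoA dehydrogenase genes, only Acadl had a called peak. Acadl encodes the long-chain enzyme. A weak peak inside it (chr1:66839769-66840118), 23366 bp from the start site, had 1.64 and 0.72 CPM in the wild type and 5.84 and 4.54 CPM in the mutant, from 29 and 14 reads against 96 and 72 reads. The groups were far apart, with a log2 fold change of 2.14 (SE 0.39, adjusted p = 0.00426 in edgeR), the largest of the 92 peaks. It passed in all alternatives but 1, being lost without wild-type replicate 2 (log2 fold change 1.66, adjusted p = 0.0581), and the log2 fold change was 2.84 without wild-type replicate 1. The other 7 peaks of Acadl did not pass, with log2 fold changes from -0.52 to 0.19. The start peak itself had 43.7 and 42.5 CPM in the wild type and 48.5 and 38.9 CPM in the mutant, an overlap.

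Acadm had no called peak among 10, although the median log2 fold change of its peaks was 0.42. Both mutant libraries lay above the wild type at 5 of the 10 and below at 0 (25.8% and 25.7% of all peaks). A peak inside the gene (chr3:153935867-153936443) had 18.1 and 13.4 CPM in the wild type and 25.6 and 17.8 CPM in the mutant, which overlapped (log2 fold change 0.46, SE 0.21, adjusted p = 0.196 in edgeR; 0.00983 without mutant replicate 2). The start peak had 89.0 and 97.6 CPM in the wild type and 98.7 and 99.5 CPM in the mutant (log2 fold change 0.09, SE 0.13). Acadvl, the gene of the very-long-chain enzyme, lies in a gene-dense stretch, and 4 of its 14 peaks lay only at the ends of other genes, among them Gabarap, Phf23 and Dlg4. Its 14 peaks had log2 fold changes from -0.43 to 0.46, and 0 had an unadjusted p under 0.05. The smallest p was that of a peak at an end of Dlg4 (chr11:70017404-70018386), with 7.70 and 5.16 CPM in the wild type and 7.73 and 8.83 CPM in the mutant (log2 fold change 0.37, SE 0.26, adjusted p = 0.445 in edgeR). Acads, the gene of the short-chain enzyme, had 5 peaks with a median log2 fold change of -0.09, which turned to 0.05 with loess offsets. The lowest Acads log2 fold changes, -0.35 and -0.29, lay at the end of Unc119b. The peak with -0.29 (chr5:115134302-115135059) had the smallest p of Acads. Its levels were 13.1 and 13 CPM in the wild type and 11.7 and 9.72 CPM in the mutant (adjusted p = 0.466 in edgeR). DESeq2 and limma voom called no peak of Acadm, Acadvl or Acads.

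Hadha and Hadhb encode the alpha and beta subunits of the trifunctional protein. All 19 peaks in their joint window had a log2 fold change above 0, from 0.09 to 1.39 with a median of 0.63. Both mutant libraries lay above both wild-type libraries at 16 of the 19, and below at 0 (25.8% and 25.7% of all peaks). Of the 19, 3 passed the threshold and 13 had an unadjusted p under 0.05 in edgeR. Of all peaks, 3.05% passed and 11.4% had such a p in this direction. The sum over the 19 peaks was 199.8 and 184.8 CPM in the wild type and 296.4 and 245.5 CPM in the mutant. Mutant replicate 1 was the highest, and both mutant libraries were above the wild type. With mutant replicate 1 left out, the median was 0.51 with 18 of 19 above 0, and without wild-type replicate 2 it was 0.50 with 17 of 19 above 0 and 0 calls.

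The 3 called peaks stood at the flanks of the pair. A peak inside the neighbour Garem2 (chr5:30107673-30108061) had 1.75 and 1.14 CPM in the wild type and 3.89 and 3.66 CPM in the mutant (log2 fold change 1.39, SE 0.37, adjusted p = 0.0341 in edgeR). A broad peak that spans the end of Garem2 and stops 63 bp from the far end of Hadha (chr5:30116120-30119360) had 15.3 and 15.5 CPM in the wild type and 25.4 and 23.7 CPM in the mutant (log2 fold change 0.67, SE 0.18, adjusted p = 0.0303 in edgeR). A peak inside Adgrf3, on the other side (chr5:30195013-30195691), had 3.06 and 1.755 CPM in the wild type and 6.75 and 4.73 CPM in the mutant (log2 fold change 1.26, SE 0.34, adjusted p = 0.0332 in edgeR). In each the genotypes did not overlap. Leaving out wild-type replicate 2 ended all 3 calls (adjusted p = 0.288, 0.22 and 0.304 in edgeR). Without wild-type replicate 1 the calls inside and at the end of Garem2 were lost as well (0.0598 and 0.198), and without mutant replicate 1 that inside Adgrf3 (0.109). DESeq2 did not call the peaks inside Garem2 and Adgrf3 (adjusted p = 0.108 and 0.0848). Inside the genes, a peak of Hadhb 3219 bp from its start (chr5:30158313-30158631) had 2.26 and 1.86 CPM in the wild type and 4.99 and 3.91 CPM in the mutant, with a log2 fold change of 1.11 just short of the threshold (SE 0.34, adjusted p = 0.0579 in edgeR).

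The next 5 peaks on each side of the joint window, examined after these values were seen, did not all go the same way. Their log2 fold changes ran from -1.42 to 0.39, with 2 of 10 above 0, and several were smaller in size than their SE. The highest, whose nearest gene is Tyms, was the closest peak on the Hadha side. The lowest, whose nearest gene is Selenoi (chr5:30270848-30271171), fell from 3.68 and 4.95 to 1.83 and 1.39 CPM (adjusted p = 0.0255 in edgeR). The plot of the gene pair sets both groups of peaks side by side.

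**Figure D3:**
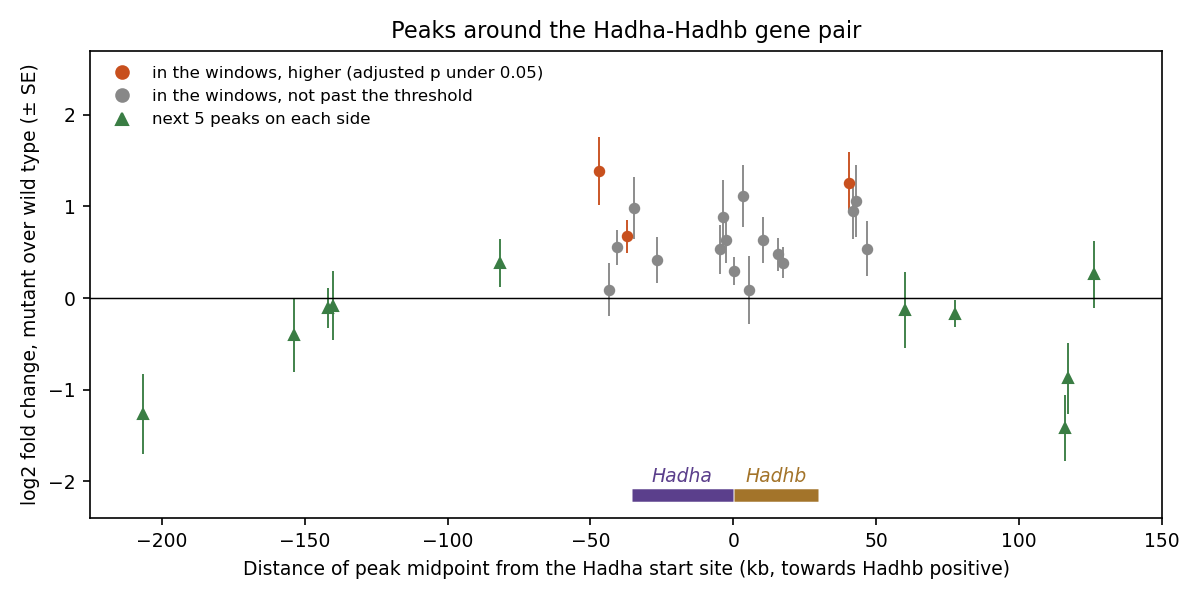
log2 fold change with its SE (mutant over wild type) against the distance of the peak midpoint from the Hadha start site in kb, with bars for the 2 gene bodies. The 19 peaks of the joint window (circles) all lie above 0, and of the next 5 peaks on each side (triangles) 8 of 10 lie below 0.

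Decr1 encodes 2,4-dienoyl-CoA reductase, an auxiliary enzyme needed for unsaturated fatty acids. Of its 6 peaks, 1 fell and 0 rose (edgeR; 2 had an unadjusted p under 0.05 in the higher direction, and DESeq2 and limma voom also called 0 higher). With loess offsets 1 peak was called higher, and a higher call also appeared without mutant replicate 2. The lower peak lies inside the gene (chr4:15924044-15924466) and had 12.7 and 16 CPM in the wild type and 8.39 and 6.94 CPM in the mutant, which did not overlap. The log2 fold change was -0.91 (SE 0.23, adjusted p = 0.0249 in edgeR; 0.277 without wild-type replicate 2). The other 3 peaks inside the gene, besides that at the gene end, had both mutant libraries above the wild type (25.8% of all peaks) but did not pass. The one nearest to the gene end (chr4:15942929-15943191) had 1.36 and 1.45 CPM in the wild type and 3.59 and 2.84 CPM in the mutant (log2 fold change 1.19, SE 0.38, adjusted p = 0.0665 in edgeR). Log2 fold changes within the gene thus had both signs, and the sum over the Decr1 window overlapped between genotypes, at 83.2 and 87.6 CPM in the wild type and 97.9 and 82.9 CPM in the mutant.

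**Figure D4:**
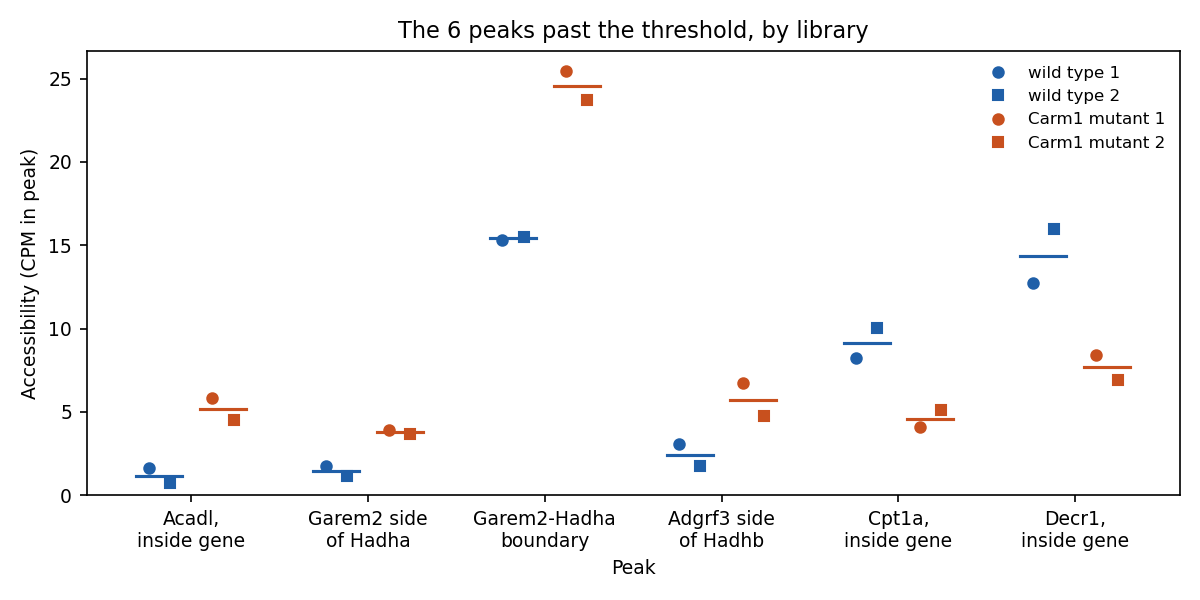
CPM in every library (points) with the mean of each genotype (bars, n = 2) at the 6 peaks past the threshold. The genotypes do not overlap at any of them, and the widest relative gap is at the weak peak inside Acadl, with 0.72 to 1.64 CPM in the wild type and 4.54 to 5.84 CPM in the mutant.

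When the counts of all peaks in the window of a gene were summed and tested over 16983 protein-coding genes, Hadha and Hadhb passed the threshold and the other 8 genes did not. By this test 1.63% of all genes were higher and 1.02% lower. It scaled the summed counts by library totals over all gene sums, whereas the summed levels given here add up the CPM of the peaks. The log2 fold changes therefore do not follow exactly from these levels. The peaks of Hadha summed to 187.8 and 175.6 CPM in the wild type and 277.1 and 223.9 CPM in the mutant, with log2 fold change 0.43 (SE 0.094, adjusted p = 0.0241 in edgeR). Those of Hadhb summed to 150.8 and 136.6 CPM in the wild type and 225.2 and 170.9 CPM in the mutant, with log2 fold change 0.43 (SE 0.11, adjusted p = 0.041 in edgeR). The genes share 9 peaks, so these are not 2 independent results. Neither gene was called when peaks were counted only for their nearest gene. Both calls were lost without mutant replicate 1 (log2 fold changes 0.28 and 0.23, adjusted p = 0.0785 and 0.161) or without wild-type replicate 2 (0.38 and 0.36, adjusted p = 0.0984 and 0.188).

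Cpt1a summed to 225.0 and 211.1 CPM in the wild type and 265.3 and 254.7 CPM in the mutant, which did not overlap and did not pass (log2 fold change 0.22, SE 0.079, adjusted p = 0.145 in edgeR). Cpt2 (0.20), Cpt1b (0.16) and Acadm (0.12) had smaller log2 fold changes of the summed counts, again with both mutant libraries above the wild type (23.7% of all genes were so, and 23.8% the reverse). Acadl (0.04), Acadvl (0), Acads (-0.07) and Decr1 (0.05) overlapped between genotypes. The median log2 fold change of the 10 genes was 0.14, against 0 over all genes.

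**Figure D5:**
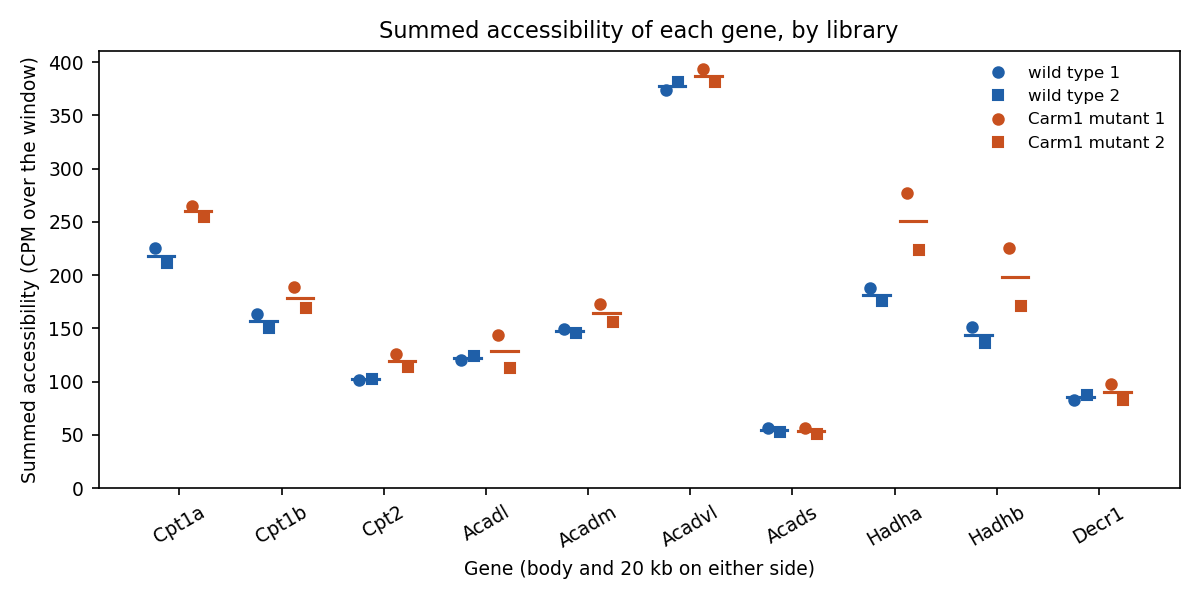
CPM summed over all peaks in the body and 20 kb on either side of each gene, in every library (points), with the mean of each genotype (bars, n = 2). Hadha has 175.6 to 187.8 CPM in the wild type and 223.9 to 277.1 CPM in the mutant, while Acadvl, with 374.2 to 393.5 CPM in all libraries, and Acads overlap between genotypes.

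Other genes of the pathway or close to it were read from the same test. None of the 174 peaks near 20 further mitochondrial genes passed in either direction in edgeR (5.5% of all peaks did), DESeq2 or limma voom. These include Slc25a20, the carnitine-acylcarnitine carrier, Hadh and Acaa2, which act after the dehydrogenases, and Etfa, Etfb and Etfdh, which pass on their electrons. The list also holds genes outside the cycle itself, among them Acacb (25 peaks) and Mlycd (16 peaks). By edgeR 18 peaks were higher and 6 lower at an unadjusted p under 0.05, against 11.4% and 10.4% of all peaks. The median log2 fold change of the 174 peaks was 0.11, with 118 above 0 (67.8%, against 49.9% of all peaks). Without mutant replicate 1 this median was 0.03, and without mutant replicate 2 it was 0.17. Of 37 peaks near 10 genes of the peroxisomal pathway, which shortens very long chains outside mitochondria, 1 rose and 1 fell, and the median was -0.06. The peak that rose lies in the window of Abcd3 but nearest to F3 (chr3:121739944-121740168), with 0.74 and 0.77 CPM in the wild type and 4.20 and 1.39 CPM in the mutant (adjusted p = 0.0306 in edgeR). The peak that fell lies in the window of Scp2 but nearest to Podn (chr4:108037166-108037450), with 3.395 and 2.37 CPM in the wild type and 1.22 and 0.88 CPM in the mutant (adjusted p = 0.0433 in edgeR). Neither passed with DESeq2 or limma voom, or without either wild-type library.

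At the edge of the 20 kb rule, the farthest peak inside each window lay 1485 to 19577 bp from the gene, with log2 fold changes from -0.29 to 0.61 and none called. The nearest peak outside each window lay 21386 to 67950 bp away, with log2 fold changes from -0.98 to 1.26. The outside peak of Acads was called lower, and that of Hadha, called higher, is the Adgrf3 peak that belongs to the Hadhb window.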

How the data were processed

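The members and gene lists were chosen with earlier results of these data known. The data were 1 table of whole-number read counts in a common set of peaks, not normalized, as deposited by the authors. Per the submitters' processing notes, FastQC, Bowtie2 and build mm10 were used. How peaks were called, how reads and duplicates were filtered and whether reads were shifted for the transposase is not given in the sources used here. Such choices affect the peaks and their counts.

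Peaks were tied to protein-coding genes of a RefSeq table (GRCm38.p6, the same assembly as mm10), which gave no exons, so exonic, intronic and UTR positions are unknown. Sequence came only from a RefSeq table of promoter windows, so the changed peaks are shown without theirs. The test over all peaks was edgeR's quasi-likelihood test (edgeR 4.0.16, R 4.3.3; genotype as the only term, TMM, filterByExpr, which removed 0 peaks, Benjamini-Hochberg adjusted p under 0.05). Counts summed per gene were tested alike. SE values derive from the test statistic, and the common biological coefficient of variation was 0.166. Text names all 10 genes, their start peaks, the peak with the smallest p of each gene, every called peak and, from the other lists, genes with a called peak. Further peaks were named after their values were seen. Alternatives were other scalings, filters, DESeq2 1.42.0, limma 3.58.1, each library left out, a replicate block and other windows. Loess offsets came from a smooth curve of each library's log counts against mean abundance, centred over the libraries. An exact permutation of 2 against 2 libraries cannot reach 0.05 and was not used. CPM values with n = 2 are given per library.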

Additional observations from a re-analysis of the deposited data

How the results depend on the processing

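Log2 fold changes of the 6 called peaks kept their sign in all 12 alternatives, and the calls that were lost are given with each peak. Scaling moved the median of all peaks by at most 0.04 (to -0.04 with total counts, where 66 of 92 member peaks lay above 0). Over the fits that left out each library in turn, called higher and lower peaks ran from 642 to 4307 and from 364 to 4132 in the whole table, from 0 to 17 and from 0 to 2 among the 92 member peaks, from 0 to 15 and from 0 to 3 in the other mitochondrial list, and from 0 to 2 and from 0 to 3 in the peroxisomal list. The member median ran from 0.18 to 0.30, the other mitochondrial median from 0.03 to 0.19, the peroxisomal median from -0.088 to -0.028, and called genes by summed counts from 0 to 2. Such a fit takes the spread of a genotype's lone library from the other pair, so the cause of a changed count was not tested.

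DESeq2 called 1365 higher and 1008 lower of all peaks, 2 and 1 of the member peaks and 0 and 0 of the peroxisomal peaks. Limma voom also left 0 and 0 of the peroxisomal peaks. So did a mean CPM of at least 2, which tested 34 of these 37 peaks and left out both called ones. Total counts gave 1 lower call in the other mitochondrial list, and 2 lower calls and a median of -0.10 in the peroxisomal list. Loess offsets gave 1 higher and 1 lower call in the other mitochondrial list and 1 called gene by summed counts. They gave 6 higher calls among the member peaks. The cause of the other differences was not tested.

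With 5 kb windows there were 2 higher member peaks, 1 called gene by summed counts, and 0 higher and 0 lower peroxisomal peaks. With 50 kb windows there were 4 lower member peaks, 2 higher and 1 lower in the other mitochondrial list, and 2 and 2 with a median of 0.017 in the peroxisomal list. With peaks counted only for their nearest gene there were 1 higher member peak, 0 called genes by summed counts, and 0 and 0 with a median of -0.11 in the peroxisomal list. These windows hold other peaks. Without the Hadha and Hadhb windows, a choice made after seeing the data, 1 member peak was higher.

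Same-numbered libraries share only a number: their deviations correlated at 0.11 across peaks, and the labels name no shared litter or day. With the replicate block 5230 peaks were higher and 4494 lower in the whole table, 13 and 2 among the members (14.1% higher, against 5.95% of all peaks, with 3 of them in Cpt1a and 1 in Decr1), 9 and 2 in the other mitochondrial list, and 2 and 2 in the peroxisomal list.

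Log2 fold changes near 0 changed sign in some fits. The median over the peaks of a gene did so for Acads, at 0.05 with loess offsets. It also did so for Acadl (-0.012 with total counts and -0.151 without mutant replicate 1) and Cpt1b (-0.022 without mutant replicate 1). Over the fits without each library, the start peak ran from -0.147 to 0.17 at Acadl, -0.118 to 0.259 at Acads, -0.161 to 0.221 at Acadvl, -0.004 to 0.353 at Cpt1b and -0.009 to 0.347 at Decr1. The summed counts ran from -0.127 to 0.19 at Acadl, -0.062 to 0.154 at Decr1 and -0.007 to 0.015 at Acadvl. At Acadl the start peak was -0.002 with loess offsets and -0.015 with total counts. The summed counts of Acadvl were -0.03 with loess offsets and -0.009 with total counts. Those of Acads were 0.042 with 5 kb windows and also by nearest gene. Weak peaks hold few reads, and the SE of a log2 fold change reached 0.41 among the member peaks.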
